A study of Mus musculus with 2 samples.

Results

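The Slc25 family holds the mitochondrial carriers, the proteins that move nucleotides, phosphate, carboxylates, amino acids, cofactors and iron across the inner mitochondrial membrane. Its members were taken as every transcript probe whose name in the scanner files starts with Slc25a, with the brightest probe standing for each gene. This gave 41 genes of the 27565 on the array, covered by 71 of its 41174 transcript probes. Their transcripts were measured in thymus of 6-month-old Pla2g10-Tg/+ mice and of littermate controls, both on a C57BL/6 background and fed a standard diet. RNA of 4 mice was pooled per genotype, and both pools were hybridised together on 2 two-colour Agilent arrays. The transgenic pool carried the red dye on array 1 and the green dye on array 2. The labels give neither the promoter that drives the transgene nor whether the arrays hold separate pools, so the arrays were taken as a dye swap of the same pools.

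Carriers share a fold of paired helices repeated along the protein, and most work as exchangers that let one solute in as another leaves. They link the ATP made in the matrix to the cytosol, feed the malate and aspartate shuttle, and supply substrates for one-carbon, haem and amino acid metabolism. In the thymus, dividing T cell precursors depend on this exchange, and nonshivering heat production in brown fat depends on a close relative, uncoupling protein 1. Pla2g10 encodes group X secreted phospholipase A2, which releases fatty acids from phospholipids.

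No carrier reached the size used here to call a difference between the transgenic and the control thymus. Of 5 measured carriers of adenine nucleotides and phosphate, 4 had mean log2 ratios below 0, Slc25a4 at -0.16 ± 0.07, Slc25a25 at -0.16 ± 0.11, Slc25a5 at -0.18 ± 0.23 and Slc25a3 at -0.28 ± 0.36. For Slc25a5 and Slc25a3 the SD exceeded the mean, and array 2 alone gave -0.02 and -0.03. The exception in that group, the calcium-regulated ATP-Mg/phosphate carrier Slc25a24, read 0.21 ± 0.08. The basic amino acid carrier Slc25a29 read 0.12 ± 0.02, and the carriers of di- and tricarboxylates lay between -0.11 and -0.02. Every ratio is log2 of the transgenic over the control pool, averaged over the arrays and given ± their SD (n = 2 arrays, 1 pool per genotype). With the arrays taken as a dye swap of the same pools, that SD is read as technical and there is no replicate check across animals.

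A gene counted as measured when its probe cleared the background, by the scanner software's flag, for at least 1 genotype on both arrays, which 9397 genes did. The red channel had the larger share of such spots on both arrays, at 34.1% (transgenic) on array 1 and 33.2% (control) on array 2, against 29.0% and 28.5% in green. Pla2g10 itself was well above background in 0 of 4 channels, and the part of the gene in the transgene is not stated by the labels. The tissue was checked against marker genes: 10 of 11 immature thymocyte markers and 5 of 6 thymic epithelial markers were measured, with Rag2 and Foxn1 not well above background. In such bulk RNA, fewer cells of a type and less RNA per cell cannot be told apart.

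Promoter windows are shown for 4 carriers: Slc25a4 and Slc25a5, which encode paired forms of the ADP/ATP exchanger, and Slc25a24 and Slc25a29, the pair above 0.1 on both arrays. Each is the 150 bases upstream of the annotated start on GRCm38.p6, 5′ to 3′ on the gene's strand, from RefSeq. Capitals mark exact matches, on either strand, to the ETS motif CCGGAAG, the CCAAT box CCAAT and the GC box GGGCGG; no matches of different motifs overlapped. The windows lie at chr8:46211063-46211212 (minus strand) for Slc25a4, chrX:36795447-36795596 (plus) for Slc25a5, chr3:109122999-109123148 (plus) for Slc25a24 and chr12:108835877-108836026 (minus) for Slc25a29.
Slc25a4: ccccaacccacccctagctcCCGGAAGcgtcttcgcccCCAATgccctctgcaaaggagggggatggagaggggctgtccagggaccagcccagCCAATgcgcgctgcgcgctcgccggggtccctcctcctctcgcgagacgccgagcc
Slc25a5: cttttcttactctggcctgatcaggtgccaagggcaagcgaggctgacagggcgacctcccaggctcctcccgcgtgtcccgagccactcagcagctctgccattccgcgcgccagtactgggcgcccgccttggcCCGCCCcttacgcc
Slc25a24: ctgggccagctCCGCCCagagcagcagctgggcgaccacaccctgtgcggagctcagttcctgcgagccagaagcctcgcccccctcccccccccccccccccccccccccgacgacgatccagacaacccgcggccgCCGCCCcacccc
Slc25a29: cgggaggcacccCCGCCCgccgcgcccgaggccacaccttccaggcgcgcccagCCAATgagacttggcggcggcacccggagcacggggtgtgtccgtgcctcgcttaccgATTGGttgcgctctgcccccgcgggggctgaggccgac

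A RefSeq promoter was found for 31 of the 41 carriers, 17 of them measured, and 8 motifs were searched in the 250 bases upstream. The GC box lay in 12 of the 17 (70.6%), against 64.6% of 6782 measured genes with a promoter. The CCAAT box lay in 9 (52.9%, against 40.7%) and the ETS motif in 4 (23.5%, against 18.0%). The E-box CACGTG was present in 4 (23.5%, against 10.6%) and the cyclic AMP element core TGACGT in 3 (17.6%, against 12.7%). The NRF1 motif (GCGC, any base, TGCGC), bound by a regulator of respiratory chain genes, was present in the Slc25a3 promoter alone among the 17 (5.88%, against 10.5%). The TATA box TATAAA (7.95% of measured genes) and the estrogen-related receptor motif TCAAGGTCA (0.339%) had no match in the 17. Median GC content was 61.6% in the 17 windows and 60% over measured genes. The Slc25a4 and Slc25a5 windows differ in the marked motifs, since the first holds an ETS match and a pair of CCAAT boxes and the second a GC box. These matches are descriptions of letters, and no binding was measured.

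Of the 41 carriers, 21 were measured and 20 were not. All 4 channels were well above background in 20 of the measured carriers, the exception being the pyrimidine nucleotide carrier Slc25a33 with 3 channels. Of the 20 not measured, 17 were well above background in no channel and 3 (Slc25a27, Slc25a30 and Slc25a32) in the red channel of each array only. No carrier probe was saturated. Before normalization the red channel was the brighter on both arrays for Slc25a3, Slc25a4, Slc25a5 and other carriers at the right of the plot of spot signals, whichever genotype it held.

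**Figure D1:**
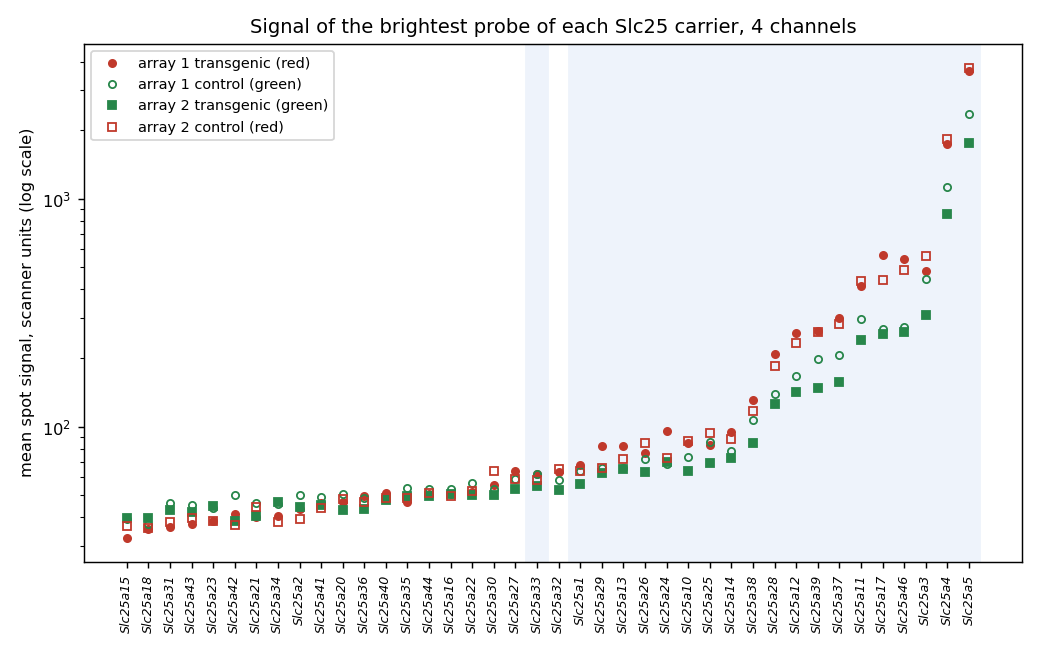
Mean spot signal in scanner units (log axis) of the brightest probe of 40 Slc25 carriers, in order of signal for display, since levels of different probes are not comparable. Circles are array 1 and squares array 2; filled symbols are the transgenic pool, open symbols the control pool, and the colour is the dye. The 20 measured carriers shown are shaded, and among the brightest the red symbols of both arrays lie above the green ones.

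The adenine nucleotide and phosphate group supplies the matrix with ADP and phosphate and exports ATP, and 5 of its 8 members were measured. Slc25a3, the phosphate carrier (mm8 chromosome 10, 90548015 to 90548556), read 396.5 in the transgenic and 575.7 in the control pool on array 1, in normalized intensity, and 427.8 and 437.2 on array 2. The log2 ratios were -0.54 and -0.03, mean -0.28 ± 0.36. Array 1 therefore carried almost the whole difference, and the mean was smaller than the SD between arrays. Slc25a5, which encodes the ADP/ATP exchanger ANT2 of dividing cells (chromosome X, 33229925 to 33229984), read 2613.3 against 3315.1 on array 1 and 2574.7 against 2605.4 on array 2. Its log2 ratios were -0.34 and -0.02, mean -0.18 ± 0.23, so array 1 again set the mean.

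Slc25a4, which encodes ANT1, the form abundant in heart and muscle (chromosome 8, 47706291 to 47706350), was below the control on both arrays. It read 1314.8 against 1517.2 and 1215.2 against 1314.7 on arrays 1 and 2, log2 ratios of -0.21 and -0.11, mean -0.16 ± 0.07. Within each array the transgenic value was the lower. A second measured probe of Slc25a4 read -0.16 and -0.01. Slc25a25, a calcium-regulated ATP-Mg/phosphate carrier (chromosome 2, 32236764 to 32236823), read 89.8 against 105.9 and 91.7 against 97.3, log2 ratios of -0.24 and -0.09, mean -0.16 ± 0.11. Its second measured probe had a mean of -0.08.

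Slc25a24 is the close relative of Slc25a25 that carries the same substrates, and it lay on the other side of 0. Its probe (chromosome 3, 109296404 to 109296463) read 100.9 in the transgenic and 83.7 in the control pool on array 1, and 88.1 and 79.1 on array 2. The log2 ratios were 0.27 and 0.16, mean 0.21 ± 0.08, so the transgenic value was the higher within each array. With the offset of 50 removed the log2 ratios were 0.61 and 0.40 for Slc25a24 and -0.50 and -0.18 for Slc25a25, since an offset shrinks ratios of dim probes. The difference between these paired genes was not tested. The remaining members of the group, Slc25a23, Slc25a31 and Slc25a41, were not measured.

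Carriers of di- and tricarboxylates exchange Krebs cycle intermediates with the cytosol, and 3 of 4 were measured. Slc25a11, the oxoglutarate and malate exchanger of the malate-aspartate shuttle (chromosome 11, 70460432 to 70460491), read 343.2 against 378.9 on array 1 and 325.7 against 344.4 on array 2. Its log2 ratios were -0.14 and -0.08, mean -0.11 ± 0.04. The dicarboxylate carrier Slc25a10 had -0.06 ± 0.06 and the citrate carrier Slc25a1, which supplies cytosolic acetyl units for lipid synthesis, -0.02 ± 0.01. All 3 were below 0 on both arrays, by small amounts, and Slc25a21 (oxoadipate) was not measured.

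The aspartate and glutamate carriers complete the same shuttle, and 2 of 4 were measured. Slc25a13 (citrin) read 92.6 against 86.7 and 87.2 against 82.1, log2 ratios of 0.10 and 0.09, mean 0.09 ± 0.01. Slc25a12 (aralar) read 227.9 against 212.4 on array 1 and 192.5 against 197.8 on array 2, log2 ratios of 0.10 and -0.04, mean 0.03 ± 0.10. The arrays thus had opposite signs for Slc25a12, and with median centring in place of loess its mean was below 0. Slc25a18 and Slc25a22 were not measured.

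Of 8 carriers of other amino acids, glutathione and S-adenosylmethionine, 4 were measured. Slc25a29, which carries arginine and lysine (chromosome 12, 109273972 to 109274031), read 90.6 against 82.4 on array 1 and 81.0 against 75.3 on array 2. The log2 ratios were 0.14 and 0.11, mean 0.12 ± 0.02, or 0.33 and 0.30 without the offset. The transgenic value was the higher within each array. Slc25a39, needed for glutathione import into mitochondria (chromosome 11, 102219315 to 102219374), read 230.9 against 252.3 and 201.6 against 220.8, with a log2 ratio of -0.13 on each array. The arrays gave nearly the same ratio for Slc25a39, and the SD rounds to 0.00. The S-adenosylmethionine carrier Slc25a26 had -0.07 ± 0.07 and the glycine carrier Slc25a38, which serves haem synthesis, -0.04 ± 0.07. Slc25a2, Slc25a15, Slc25a40 and Slc25a44 were not measured.

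Other carriers move cofactors and nucleotides. Slc25a17, a carrier of the peroxisomal membrane that moves coenzyme A and related cofactors (chromosome 15, 81146190 to 81146249), read 465.1 against 348.4 on array 1 and 350.5 against 348.3 on array 2. Its log2 ratios were 0.42 and 0.01, mean 0.21 ± 0.29, so the difference was seen on array 1 and not on array 2. A second measured probe of Slc25a17 split the other way, at 0.13 and 0.25, and had a mean of 0.19. Slc25a33 had 0.01 ± 0.03, and Slc25a16, Slc25a32, Slc25a36 and Slc25a42 were not measured.

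Both mitoferrins, which bring iron into the matrix for haem and iron-sulphur clusters, were measured. Slc25a37 (mitoferrin 1), the form that serves red cell precursors, read 260.1 against 264.2 on array 1 and 216.3 against 235.4 on array 2, log2 ratios of -0.02 and -0.12, mean -0.07 ± 0.07. Slc25a28 (mitoferrin 2) read 189.6 against 177.5 and 169.1 against 162.1, log2 ratios of 0.10 and 0.06, mean 0.08 ± 0.02. Of 7 erythroid markers on the array 4 were measured, and 2 were called higher, where 1.68% of all measured genes were. These were Hbb-bt at 1.18 ± 0.27 and Hba-a1 at 0.85 ± 0.13. The ratio of each mitoferrin was small in size beside the ratios of these 2 markers. Tfrc, another measured marker of that list, went the other way at -0.05 ± 0.03, below 0 on both arrays. The summed normalized intensity of the measured erythroid markers was 5496 and 5481 in the transgenic channels and 2963 and 2388 in the control channels of arrays 1 and 2. Alas2, the first enzyme of haem synthesis in red cells, read 0.32 ± 0.10, and its part in the carriers' values was not tested.

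Slc25a46, which acts in fission and fusion at the outer membrane, read 448.5 against 358.8 on array 1 and 363.2 against 382.7 on array 2. Its log2 ratios of 0.32 and -0.08 had opposite signs, mean 0.12 ± 0.28. Slc25a14, a protein of the uncoupling type, read 100.4 against 98.3 and 95.2 against 92.0, log2 ratios of 0.03 and 0.05, mean 0.04 ± 0.01. Its relatives Slc25a27 and Slc25a30, the acylcarnitine carrier Slc25a20 that brings fatty acids in for oxidation, and the poorly defined Slc25a34, Slc25a35 and Slc25a43 were not measured.

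**Figure D2:**
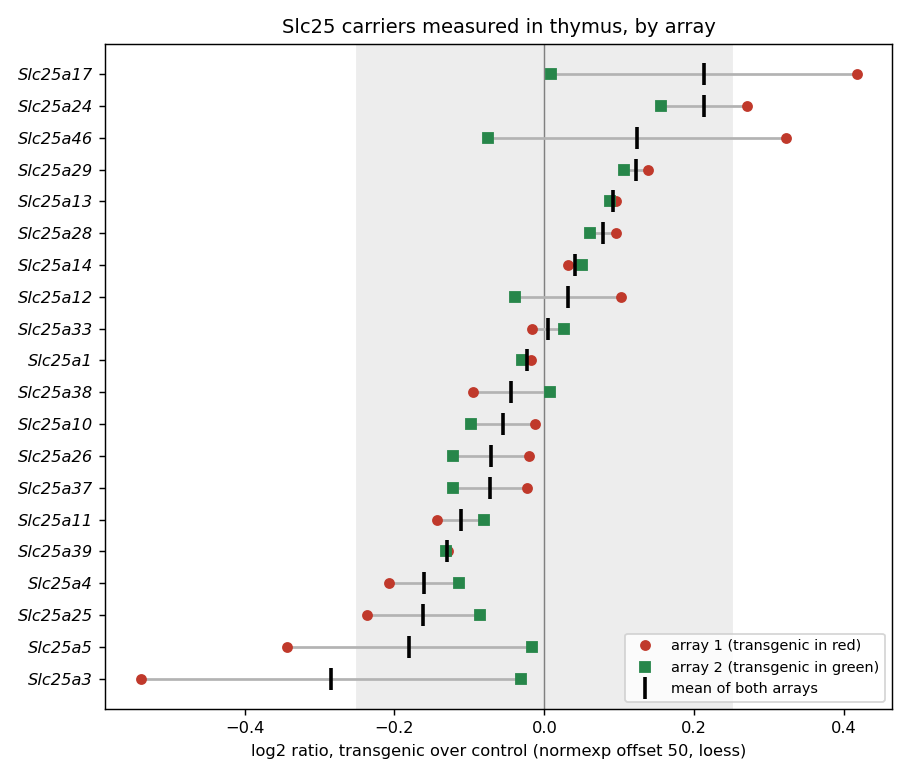
Log2 ratio of transgenic over control (x axis) for 20 of the 21 measured carriers, with array 1 as circles, array 2 as squares and their mean as a bar; the grey band marks ratios under 0.25 in size. Slc25a3, Slc25a5, Slc25a17, Slc25a24 and Slc25a46 leave the band on array 1, and no carrier shown leaves it on array 2. The share of all genes that leave it on a single array is not given, so this contrast has no baseline.

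A gene was called higher or lower if its log2 ratio was at least 0.25 in size on both arrays with one sign, a 1.19-fold difference. This is a rule of size, not of significance. None of the 21 carriers was called, where 1.68% of 9397 measured genes were called higher and 1.31% lower. Read by dye in place of genotype, the same rule put 0.245% of genes higher in red, 0.309% higher in green, and none of the carriers in either. On array 1 alone, 5 carriers passed 0.25 (Slc25a17, Slc25a24 and Slc25a46 higher, Slc25a3 and Slc25a5 lower), against 0 on array 2 alone. The share of all genes past 0.25 on a single array is not given here, so these counts have no baseline. At a size of 0.1 on both arrays, chosen after the values were seen, 2 carriers were higher (Slc25a24 and Slc25a29) and 3 lower, Slc25a4 and Slc25a39 among them, against 10% and 8.91% of genes. A limma fit that counted each array as its own measurement, and so sees technical spread alone, gave an adjusted p under 0.05 for no carrier and an unadjusted p under 0.05 for 2, Slc25a3 and Slc25a24. Over the 9397 measured genes the same fit gave an unadjusted p under 0.05 for 1169. An adjusted p under 0.05 was reached by 93 genes higher (0.99%) and 56 lower (0.596%).

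The median log2 ratio of the measured carriers was -0.04, against 0.00 over all measured genes, and their range was -0.28 to 0.21. 11 carriers were below 0 on both arrays (52.4%, against 29.1% of all genes), 6 above (28.6%, against 28.3%) and 4 had opposite signs. These signs rest on the loess step: with median centring in place of it, 93.5% of all genes and 20 of 21 carriers had opposite signs on the arrays, and the mean ratios were below 0 for 13 carriers in place of 12. The median size of the carriers' mean ratios was 0.11, against 0.08 over all genes, and 10 of 21 were under 0.1. Across the 21 carriers the ratios of the arrays correlated with Pearson r = 0.41 and Spearman rho = 0.54, against 0.31 and 0.24 over all genes (Pearson r = -0.454 over all genes with median centring), as a description of points that share the same hybridisations.

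**Figure D3:**
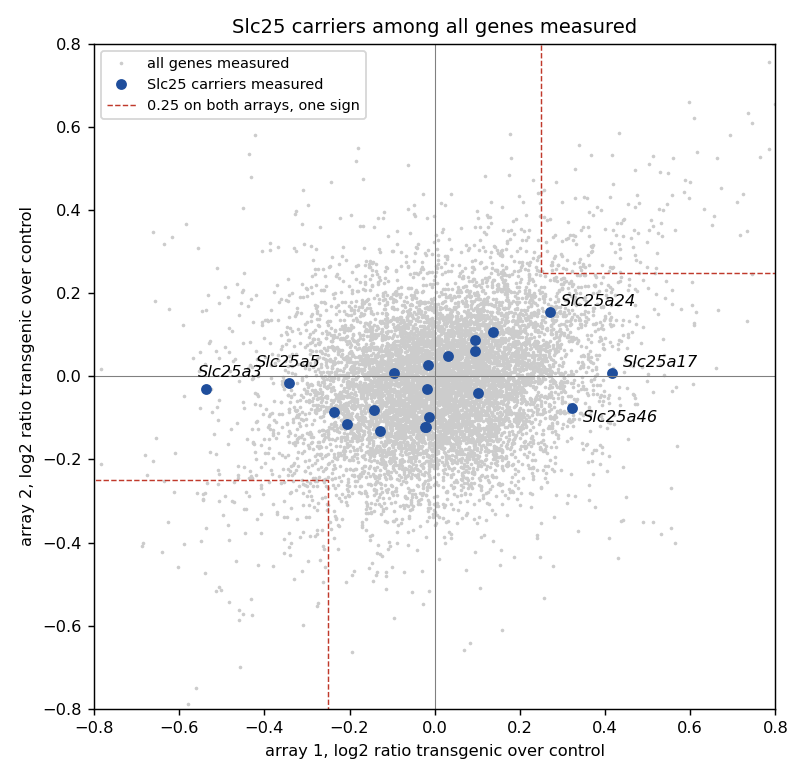
Log2 ratio of transgenic over control on array 1 (x axis) and array 2 (y axis) for the 9397 measured genes (grey) and 20 of the 21 measured carriers (blue); dashed lines mark the corners with at least 0.25 on both arrays and one sign. None of these carriers lies in either corner, and 18 genes lie outside the axes shown, which end at 0.8 on either side.

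Because an offset of 50 was added to each channel, the ratios of dim carriers depend on it. Without the offset, Slc25a24 (0.51) and Slc25a29 (0.32) passed 0.25 on both arrays, 2 of 21 where 5.82% of genes were higher and 4.16% lower. The scanner software's log ratios put the same pair past it, at 0.58 and 0.35, where the genes past it were 6.97% (higher) and 5.08% (lower). Plain background subtraction did so too, at 0.48 and 0.30, with 5.48% and 3.89% of genes. No carrier passed without background correction (2.18% and 1.47% of genes) or with median centring (0.149% and 0.0426%). Slc25a25 moved from -0.16 to -0.34 without the offset and to -0.41 with the software's ratios, and Slc25a13 from 0.09 to 0.22 and 0.25. Slc25a4 and Slc25a5 stayed between -0.16 and -0.20 under all 3. The second probes of Slc25a24 and Slc25a29 were not well above background, so each of these values rests on 1 probe.

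**Figure D4:**
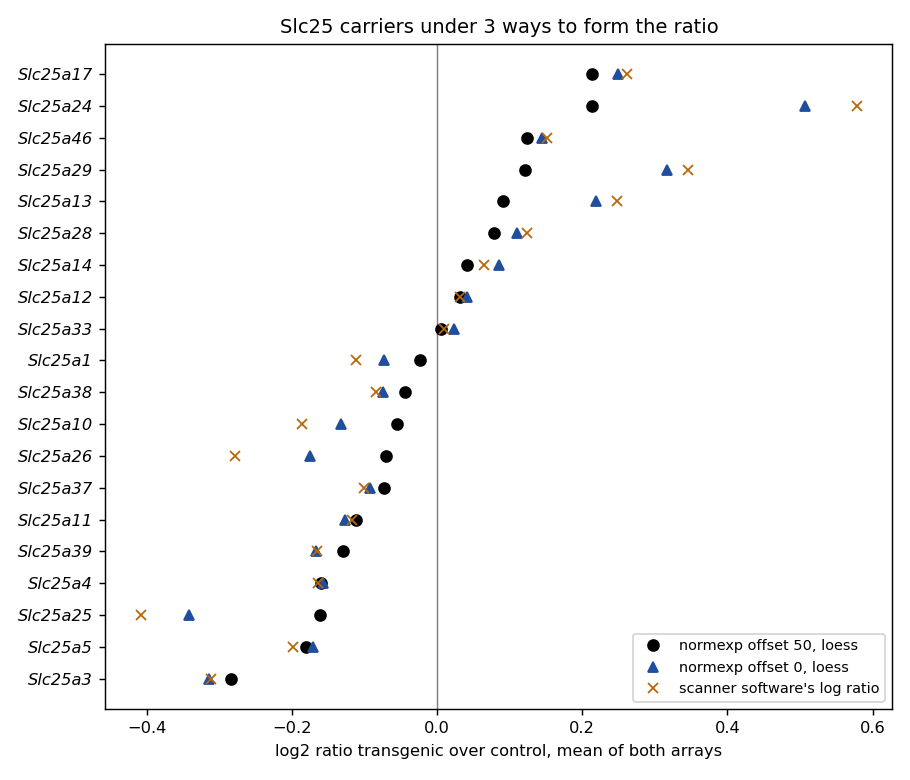
Mean log2 ratio of transgenic over control (x axis, both arrays) of 20 of the 21 measured carriers with an offset of 50 (circles), with no offset (triangles) and as the scanner software's log ratio (crosses). The ratios of Slc25a24, Slc25a29, Slc25a13, Slc25a25 and Slc25a26 lie farther from 0 without the offset, and each carrier shown keeps its side of 0 in these 3 settings.

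Among markers of immature thymocytes, 8 of 10 measured were below 0 on both arrays, 5 were called lower and 0 higher, and their median was -0.31. Over all measured genes 29.1% were below 0 on both arrays, 1.31% were called lower and 1.68% higher. Signs on both arrays rest on the loess step here too. Ccr9, a chemokine receptor of thymocytes, fell by 0.53 ± 0.10 and Cd8a by 0.51 ± 0.00. Cd4 did not follow, at 0.02 and 0.03 on arrays 1 and 2, nor did Cd3e, at -0.08 and 0.06. The summed normalized intensity of the 10 measured thymocyte markers was 23954 and 21133 in the transgenic channels and 30585 and 27329 in the control channels. White adipocyte markers were called higher in 5 of 5 measured (of 9 listed), with sums of 1762 and 1533 against 1020 and 871. For Cfd, Car3 and Cidec the control channels were not well above background, so they entered the measured set only through the transgenic channels, and the count of 5 is partly fixed by that filter. Adipoq, Plin1, Lep and Retn of that list were not measured. Among thymic epithelial markers 1 of 5 measured, Krt5 at 0.68 ± 0.10, was called higher, and 1 of 6 skeletal muscle markers (at 0.04) and 1 of 4 parathyroid and thyroid markers (at 0.01) were measured. The part of these cell types in the carriers' ratios was not tested.

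None of 33 other measured genes of this membrane system was called with the offset of 50. Without the offset 2 of them passed 0.25 on both arrays, where 5.82% of all genes were higher and 4.16% lower. These were Pprc1 at -0.64 and -0.32 and Timm9 at -0.50 and -0.43. The software's ratios gave the same pair, at -0.70 and -0.45 and at -0.63 and -0.43, with 6.97% of genes higher and 5.08% lower. Of the biogenesis regulators 7 of 8 were measured, 6 of them below 0 on both arrays (29.1% of all genes), with a median of -0.13. Such signs rest on the loess step, since with median centring 93.5% of all genes had opposite signs on the arrays. Tfam, which packages and transcribes mitochondrial DNA, read -0.44 and -0.15 on arrays 1 and 2, mean -0.30 ± 0.21, and Pprc1, a coactivator of the same programme, -0.32 and -0.16, mean -0.24 ± 0.12. Esrra had -0.16 ± 0.17 and Myc -0.13 ± 0.02, while Ppargc1a was not measured. All 9 general mitochondrial genes were measured, 4 of them below 0 on both arrays and 0 above, with a median of -0.04. The chaperone gene Hspd1 read -0.24 ± 0.13 and the ATP synthase gene Atp5b -0.16 ± 0.05. Hspa9, another chaperone gene, lay the other way at 0.14 ± 0.22, with -0.01 and 0.30 on arrays 1 and 2.

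Carriers reach the inner membrane through Tom70 and the small Tim chaperones. Of 13 genes listed for import, 11 were measured, with a median of 0.03. The list includes Timm23, which belongs to the presequence translocase and not to the carrier path. Its mean of 0.03 (0.01 and 0.05 on arrays 1 and 2) is that median. The medians of arrays 1 and 2 were 0.08 and -0.07. Timm9, a small Tim chaperone gene, read -0.21 and -0.20, mean -0.21 ± 0.01, and Timm10b -0.08 and -0.31, mean -0.20 ± 0.16. The arrays had opposite signs for Tomm70a, at 0.30 and -0.03, mean 0.13 ± 0.23, and for Timm13, at -0.38 and 0.16, mean -0.11 ± 0.39. In all, 3 of the 11 were below 0 on both arrays and 1, Timm23, above, where 29.1% and 28.3% of all genes were. The mitochondrial pyruvate carrier, built on another fold, had Mpc1 at 0.22 and 0.09, mean 0.15 ± 0.09, and Mpc2 at 0.08 ± 0.02. The outer membrane channels Vdac1, Vdac2 and Vdac3 lay between -0.07 and 0.07.

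Carriers whose array name does not start with Slc25a were outside the members. Ucp2 had -0.06 ± 0.11, Mtch1, an outer membrane protein with the carrier fold, -0.04 ± 0.13, and its relative Mtch2 -0.16 ± 0.06. Ucp3 was not measured. Slc25a51, listed as Mcart1 and known for NAD transport, had 0.19 and 0.02, mean 0.10 ± 0.12, and Slc25a45 had 0.04 ± 0.15. Slc25a47, listed as AI132487, read -0.10 on each array, mean -0.10 ± 0.00, and -0.40 and -0.52 without the offset. Its probe was well above background for 1 genotype only, so these are not exact ratios.

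Ucp1, the brown fat uncoupling protein, was well above background in 1 of 4 channels and so was not measured. On array 1 its transgenic channel read 395.8 over a local background of 99, where the median local background was 35, and the control channel 46.5 over 41. No spot of array 1 had a higher local background in either channel. On array 2 the transgenic channel read 56.4 over 35 and the control channel 38.2 over 36. The log2 ratios were 2.35 and 0.41 with the offset, 7.62 and 2.51 without it and 4.57 and 1.90 from the software. They set the transgenic channel against control channels not above background, and on array 2 neither channel was, so no fold is read from them. Of 6 brown adipocyte markers 3 were measured, with Ucp1, Dio2 and Elovl3 not measured. Of the 3, 2 were called higher, Cidea and Cox8b, where 1.68% of all measured genes were. The control channels of Cidea and Cox8b were not well above background, so they entered the measured set only through the transgenic channels. The count of 2 is thus partly fixed by that filter. Cox7a1, well above background in all 4 channels, read 0.19 and 0.20 on arrays 1 and 2 and was not called.

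In the genome the 41 carriers spread over 18 chromosomes. On mm8 the probes of Slc25a43 and Slc25a5 lie 21437 bases apart on chromosome X and those of Slc25a23 and Slc25a41 11289 bases apart on chromosome 17, the closest pairs in the family. Slc25a5 was measured and Slc25a43 was not, and neither Slc25a23 nor Slc25a41 was. No annotation of mm8 was used, so exon and UTR positions of the probes are not stated.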

How the data were processed

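Per the file headers, the deposited files came from the scanner software Feature Extraction (9.5.1.1) and give each spot's mean and local background intensity, linear and uncorrected, in both channels. A deposited log10 ratio (red over green, from signals the software detrended and dye-normalized) stands beside them, per the file headers. The authors' deposited series table equals the log10 ratio of those processed signals within 5e-10, with medians of -0.113 and -0.101. Mean signals were corrected by normexp (offset 50) and loess within each array (limma 3.58.1, R 4.3.3). Control spots and outlier spots (46 and 37) had weight 0 in the loess, and outlier spots were left out. Array 2 was multiplied by -1. Before turning, the ratios correlated at -0.271 over 11333 spots. Normalized intensities are comparable within an array. Of 41174 probes, 12235 were measured, and the brightest probe stood for each gene. The procedure was run on simulated data with planted changes larger than the carriers' mean ratios, so that run does not bear on differences of their size. Labelling started from 500 ng of RNA, per the labels. The members, gene lists and thresholds were chosen with earlier results of these data known. Channel values were given for the 8 highest and 8 lowest carriers, and up to 4 members of each other list were named by the size of their ratio. The values of 1 carrier are not reported here, and counts and medians include it. Probe names other than Slc25a came from a RefSeq table of GRCm38.p6. Alternatives were other background corrections, scaling, probe filters and thresholds, the software's ratios and each array alone.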

Additional observations from a re-analysis of the deposited data

How the results depend on the processing

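The median of the carriers (-0.04) stayed below 0 in every alternative run. It was -0.057 with median centring, where the median over all genes was -0.035, and -0.016 with no filter on dim probes (41 carriers). With an offset of 0 it was -0.075 (all genes -0.0037) and with plain background subtraction -0.073 (all genes -0.003). The software's log ratios or the deposited series table gave -0.10 (all genes -0.0055). With array 1 left out the carriers' median was -0.031 (all genes -0.012), and with array 2 left out -0.017 (all genes 0.012). The count of carriers past 0.25 on both arrays, 0, was 2 with an offset of 0, plain subtraction, the software's ratios or the series table; Slc25a24 and Slc25a29 made up each. With 1 array left out it ranged from 0 to 5, the 5 without array 2, and no share of all genes stands beside these counts. It stayed 0 in the other alternatives. Of 230 recomputed values of single carriers, 53 moved by more than the SD between arrays and 6 changed sign, in Slc25a12, Slc25a33, Slc25a38 and Slc25a46. Ratios of dim probes are limited by signal over background, and the cause of these shifts was not tested. Each log2 ratio already pairs the pools within its array, so no further block was fitted.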
